A study of Mus musculus with 6 samples.

Results

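The 300 largest clusters of distal accessible chromatin in tumour-exposed regulatory T cells (Tregs) are described here. A distal region was an autosomal stretch of the mouse genome with an ATAC-seq peak in every one of the 6 libraries, lying over 1 kb from both ends of any protein-coding gene. Regions less than 12.5 kb apart were joined, which turned 18722 distal regions into 13144 clusters. The members were chosen by their mean summed peak height over all 6 libraries. Their height and rank against other clusters are therefore given as a description, with no test. Tests between genotypes used the same heights and are not independent of that choice. The 300 clusters held 1541 of the 18722 regions.

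ATAC-seq uses the transposase Tn5 to insert sequencing adapters into open chromatin, so that tall peaks mark DNA that is often free of nucleosomes. The sort took CD4+CD25+GITR+ cells, which the labels also give as Foxp3+, from lymph nodes draining a B16.F10 tumour, a transplantable melanoma line, on day 14 after 300000 cells had been injected under the skin. The 3 Il33 KO libraries (replicates 1, 2 and 4) came from il33-/- mice on a C57BL6 background, which lack the cytokine interleukin-33, and the 3 WT libraries (replicates 2, 4 and 6) came from C57BL6 mice with the same tumour. The comparison asked how the open chromatin of these cells differs between hosts without and with Il33. In these mice Il33 is absent from the whole animal, and the labels do not say whether each library came from a separate mouse, so p-values measure the spread between libraries, which may in part be technical.

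Genes that define a cell type are often surrounded by many open elements spread over many kilobases. When such neighbouring enhancers are joined and ranked by a signal, the top of the ranking tends to hold genes of that cell's identity, and the joining distance used here is the usual one for calling super-enhancers. In Tregs, genes known for such dense regulation include those of inhibitory and costimulatory receptors, of the T cell receptor and its kinases, and of lineage transcription factors. ATAC-seq shows openness only and does not by itself show that an element is an enhancer.

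The libraries kept 8.21, 4.72 and 10.3 M tags (M, mega) in KO and 13.1, 12.9 and 15.2 M in WT. The deepest KO library thus had fewer tags than the shallowest WT library, and depth and genotype cannot be told apart. The median distal region was 21, 15 and 24 extended tags high in KO and 36, 37 and 37 in WT. Peak heights were therefore divided by the library's own median, and a relative height of 1 is the height of that library's median distal region. All 8 Treg or T cell marker genes examined (Foxp3, Il2ra, Ctla4, Ikzf2, Tnfrsf18, Cd3e, Cd4 and Lck) had 3 to 8 regions shared by all lists. The marker genes of other cells had fewer on the median but overlapped this range: B cell genes had 0 to 3 shared regions (median 2), myeloid and dendritic cell genes 0 to 7 (median 1, with Zbtb46 at 7 and Cebpb at 4), melanoma genes 0 to 3 (median 1) and CD8 T and NK cell genes 0 to 2 (median 0).

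Most distal regions could not be read as DNA here, because no mm10 genome was used. Sequence was at hand where a summit of a member region fell in a 300-base promoter window of the RefSeq set for GRCm38.p6 (250 bases before a transcript start to 50 after it), which was so for 94 member regions and 99 windows, 64 of protein-coding genes and 35 of long non-coding RNAs. These are start sites inside a gene's span, or of non-coding genes, since regions at protein-coding gene ends had been removed. The following 5 windows are shown because they lie under a region of the second-largest cluster (Lncpint), under the tallest distal region of all (Sp2), in the clusters of a pair of Treg genes (Tnfrsf9 and Gata3), and under the member region that was called higher in KO at a start site (Mir22hg). Capitals mark matches to short motif letters on either strand: AP-1 TGANTCA, Runx TGTGGT, Ets ACTTCCT, forkhead TGTTTAC, NF-kB GGGACTTTC and NFAT TTTCCT. None of these motifs lies within another, although neighbouring matches can share bases.
Lncpint, GRCm38.p6 chr6:31218425-31218724, minus strand: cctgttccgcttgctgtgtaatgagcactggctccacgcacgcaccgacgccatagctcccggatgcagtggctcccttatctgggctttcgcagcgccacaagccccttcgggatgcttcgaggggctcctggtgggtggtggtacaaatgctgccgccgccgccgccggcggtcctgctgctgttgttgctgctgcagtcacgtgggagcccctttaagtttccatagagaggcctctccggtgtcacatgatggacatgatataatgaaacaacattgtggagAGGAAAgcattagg
Sp2, GRCm38.p6 chr11:96977639-96977938, minus strand: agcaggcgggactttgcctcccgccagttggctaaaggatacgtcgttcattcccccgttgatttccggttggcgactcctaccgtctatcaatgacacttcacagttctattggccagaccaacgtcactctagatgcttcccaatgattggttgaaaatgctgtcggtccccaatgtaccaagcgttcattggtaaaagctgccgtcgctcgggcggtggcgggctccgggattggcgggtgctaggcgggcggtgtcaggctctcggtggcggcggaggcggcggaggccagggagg
Tnfrsf9, GRCm38.p6 chr4:150927749-150928048, plus strand: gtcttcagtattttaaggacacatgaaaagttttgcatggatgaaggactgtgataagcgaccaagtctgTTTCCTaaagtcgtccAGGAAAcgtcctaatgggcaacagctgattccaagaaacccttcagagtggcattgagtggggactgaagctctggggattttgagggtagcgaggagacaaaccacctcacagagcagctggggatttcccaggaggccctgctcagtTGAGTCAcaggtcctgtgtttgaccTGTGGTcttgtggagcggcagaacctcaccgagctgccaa
Gata3, GRCm38.p6 chr2:9878551-9878850, minus strand: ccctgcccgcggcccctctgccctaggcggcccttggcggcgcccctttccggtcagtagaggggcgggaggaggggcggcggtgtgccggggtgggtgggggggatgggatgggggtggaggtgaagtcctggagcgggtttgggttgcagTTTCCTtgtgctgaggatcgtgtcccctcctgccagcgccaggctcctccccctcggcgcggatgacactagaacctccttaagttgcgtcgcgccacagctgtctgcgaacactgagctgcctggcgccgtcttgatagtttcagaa
Mir22hg, GRCm38.p6 chr11:75461289-75461588, plus strand: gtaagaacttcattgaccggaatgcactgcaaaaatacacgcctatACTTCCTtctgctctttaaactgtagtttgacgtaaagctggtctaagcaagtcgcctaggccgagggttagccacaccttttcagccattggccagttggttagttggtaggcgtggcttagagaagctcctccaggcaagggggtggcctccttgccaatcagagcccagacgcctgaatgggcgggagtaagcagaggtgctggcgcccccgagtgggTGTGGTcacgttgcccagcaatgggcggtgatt

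The Tnfrsf9 window held 1 AP-1, 1 Runx and 2 NFAT matches, the Mir22hg window 1 Ets and 1 Runx match, the Lncpint and Gata3 windows 1 NFAT match each, and the Sp2 window none. Over the 99 windows, Ets letters were in 18 (18.2%), against 9.37% of all 31396 autosomal windows in the set, most of which have no distal peak. Runx letters were in 23 (23.2%, against 16.7%), NFAT letters in 34 (34.3%, against 29.1%), AP-1 letters in 10 (10.1%, against 7.84%), forkhead letters in 4 (4.04%, against 3.71%) and NF-kB letters in 1 (1.01%, against 0.36%). Some of the 99 windows overlap at the same region, so a match there can be counted more than once. The same shares were not taken over all 936 distal regions with a summit in a promoter window. No trait of the members can therefore be read from them. A match is a description of the letters, not of binding.

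Several members lay at genes of microRNAs, the short RNAs that pair with messenger RNAs through their seed. Of 919 autosomal hairpins in the RefSeq set, 9 lay inside a member and 28 inside or within 10 kb, at 20 members. Among the 28 were also Mir141 and Mir200c near the cluster of rank 164 and Mir138-2 near that of rank 278. The same count was not made over all clusters, so no trait of the members can be read from it. The 8 mature sequences below are shown because their hairpins lie in or next to members at microRNAs well known in lymphocytes: miR-21 and miR-22 inside a cluster, and the haematopoietic miR-142, the miR-23a, miR-27a and miR-24-2 cluster and miR-181d close by. Capitals mark the seed, bases 2 to 8, and all 8 seeds differ from each other.
mmu-miR-21a-5p, GRCm38.p6 chr11:86584120-86584141, minus strand: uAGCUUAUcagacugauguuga
mmu-miR-22-3p, GRCm38.p6 chr11:75463772-75463793, plus strand: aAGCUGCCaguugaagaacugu
mmu-miR-142a-5p, GRCm38.p6 chr11:87756867-87756887, plus strand: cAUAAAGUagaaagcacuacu
mmu-miR-142a-3p, GRCm38.p6 chr11:87756903-87756925, plus strand: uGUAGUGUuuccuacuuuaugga
mmu-miR-23a-3p, GRCm38.p6 chr8:84208563-84208583, plus strand: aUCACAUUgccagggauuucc
mmu-miR-27a-3p, GRCm38.p6 chr8:84208727-84208747, plus strand: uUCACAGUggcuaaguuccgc
mmu-miR-24-3p, GRCm38.p6 chr8:84208875-84208896, plus strand: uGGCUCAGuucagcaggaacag
mmu-miR-181d-5p, GRCm38.p6 chr8:84178759-84178781, minus strand: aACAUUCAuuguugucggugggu

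The summed relative height of the 300 clusters, which is the sum over a cluster's regions averaged over 6 libraries, ran from 6.32 to 23.1 with a median of 7.96, against a median of 1.12 over all 13144 clusters. They made up 2.28% of the clusters and 8.23% of the regions and carried 11.95% of the summed height. A member held 2 to 14 regions (median 5), whereas the median cluster was a single region. The members included all 12 clusters with 10 or more regions and 105 of the 107 with 6 or more, and only 10 members had 2 regions. Their span ran from 1.69 to 89.3 kb, with a median of 26.7 kb. The values at the limit lay close together: inside it were Gse1 at 6.33, a cluster near Tg at 6.32 and one near Tmprss13 at 6.32, and outside it Ergic1 at 6.32, Jak1 at 6.30 and Tnfrsf8 at 6.30.

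**Figure D1:**
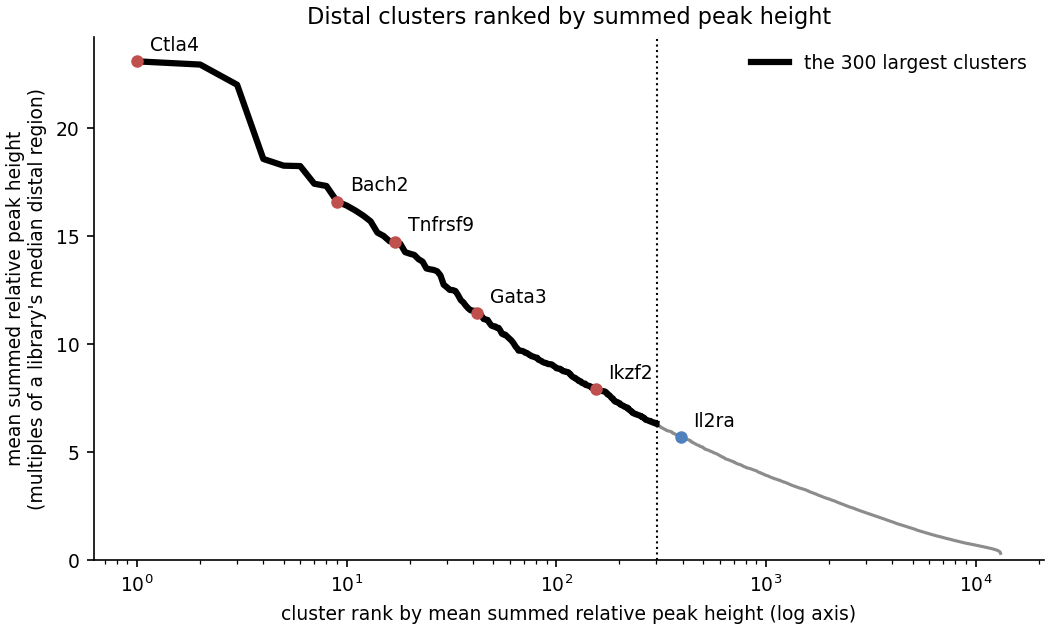
The mean summed relative peak height of every distal cluster (vertical axis, multiples of a library's median distal region) is plotted against its rank (log axis), with the 300 largest in black and the limit dotted. Ctla4 leads at 23.1 and Ikzf2 lies inside the limit at rank 154, while the best cluster at Il2ra lies outside it at rank 391.

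Members had more and taller regions than other clusters. A member region had a median relative height of 1.59, against 0.997 over all distal regions, and a median width of 740 bp, against 712 bp. The local background under member regions was also higher, with a median of 2.38 times the library's usual level, against 1 over all, and the median fold enrichment deposited by the authors was lower, at 5.95 against 7.28. These quantities are tied to the height by which the clusters were chosen. The share of summits inside genes, which the ranking did not use, was close to that of all distal regions. Of member summits 54.4% lay inside the span of a protein-coding gene, against 55.0% of all. Of the 300 members, 210 (70.0%) overlapped a protein-coding gene, against 57.1% of all clusters, which are shorter. Of the 90 members outside genes, 7 (7.78%) lay over 100 kb from the nearest one, against 744 of 5640 such clusters (13.2%). The annotation gave gene spans without exons, so intron and exon were not told apart. A further 530 regions inside the members were called in some lists but not all, against 1768 inside all clusters. An open region at a gene end was spanned by 32 members (10.7%), against 174 of all clusters (1.32%), which are shorter.

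The largest cluster of all lay at Ctla4, the inhibitory receptor through which Tregs restrain costimulation (mm10 chr1:60852938-60942223; positions of clusters and regions are on mm10 throughout). It held 14 regions over 89.3 kb and reached from before Ctla4 to 18.55 kb short of Icos, a costimulatory receptor gene next to it. Its summed height was 23.8, 25.7 and 22.2 in KO libraries 1, 2 and 4, against 22.2, 22.4 and 22.4 in WT libraries 2, 4 and 6. The groups overlapped, with a log2 ratio of KO over WT of 0.10 ± 0.06 (SE, n = 3 each; limma, adjusted p = 0.526). The tallest region lay within the Ctla4 span (chr1:60913173-60913736) at 4.05, 4.00 and 3.13 in KO and 2.67, 3.19 and 3.19 in WT. Of the other 13 regions, none exceeded 2.06 on average, and the weakest (chr1:60860351-60860974) averaged 0.833, so the cluster was a row of moderate elements around a taller one.

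**Figure D2:**
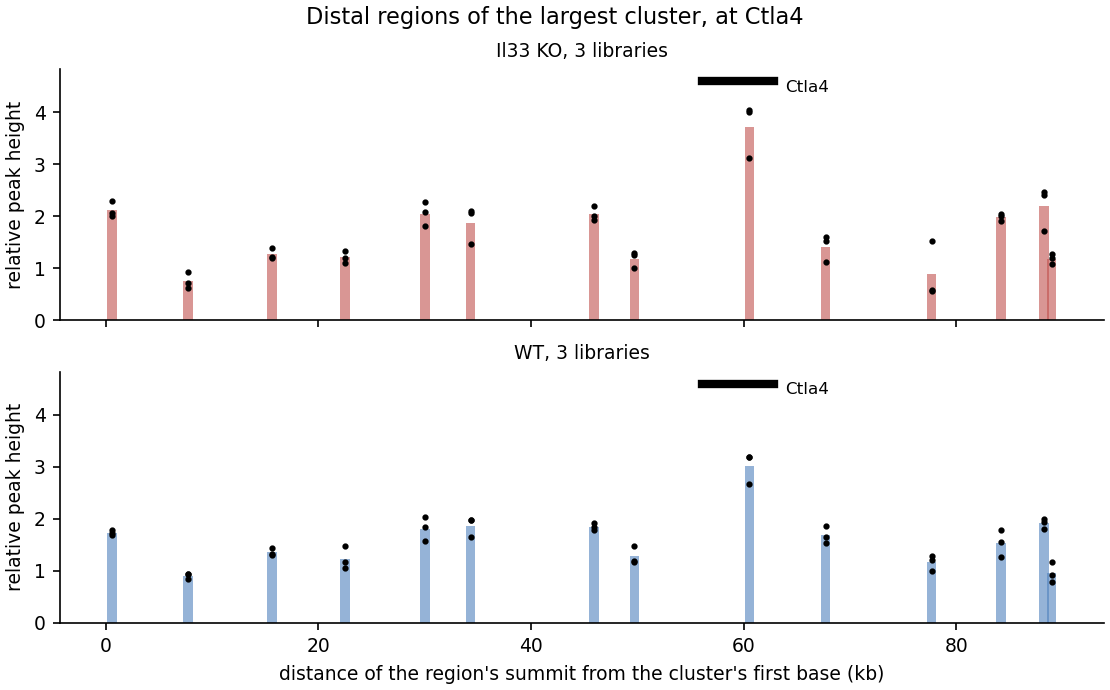
Relative peak height of the 14 distal regions of the Ctla4 cluster is plotted by distance from the cluster's first base (kb), with KO above and WT below; bars are means of 3 libraries, points are single libraries, and the black line is the Ctla4 span. The same region inside Ctla4 is the tallest in both genotypes, and the region near 78 kb shows the widest spread among KO libraries (0.571, 1.53 and 0.583).

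The second cluster lay 177 kb from Mkln1, the nearest protein-coding gene, and overlapped Lncpint, a long non-coding RNA (chr6:31146779-31221884). Its summed height was 24.8, 23.1 and 22.3 in KO, against 22.4, 22.1 and 23.0 in WT, and the groups overlapped. The region at the Lncpint start site shown above reached 3.14, 2.67 and 3.04 in KO and 3.19, 3.08 and 2.97 in WT. The third cluster, at Sfi1 (chr11:3123508-3182506), had 23.8, 22.6 and 22.0 in KO, against 22.7, 19.8 and 21.2 in WT. Sfi1, a centrosome gene, is known to have near-identical copies in the mouse genome, and the handling of reads that match several places is not stated in these sources, so its height is uncertain. The fourth lay at Sp2 and Sp6, a pair of zinc-finger factors (chr11:96966880-97026432), with 20.5, 20.9 and 18.6 in KO and 17.0, 16.4 and 18.1 in WT. It contained the tallest distal region of the data (chr11:96977080-96978277, mean 4.67), whose summit falls in the Sp2 window shown above; every KO library of the cluster was above every WT library, but the difference did not pass the test (log2 0.22 ± 0.07, SE, limma, adjusted p = 0.128).

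Among the 12 largest clusters, those assigned to transcription factors of T cells lay near Ets1 and at Bach2. Ets1, a factor that T cells need for their development and survival, had 3 member clusters: rank 5, in a gene-poor stretch 148 kb from the gene (chr9:32906224-32941963), rank 25 inside it (chr9:32722954-32747963) and rank 238. The distant cluster was larger than the one inside, at 19.4, 20.1 and 17.8 in KO and 17.6, 17.2 and 17.6 in WT, against 13.8, 15.1 and 13.8 in KO and 13.2, 12.4 and 12.7 in WT for the inner one. Assignment of the distant cluster to Ets1 rests on distance only. Bach2, a repressor that keeps T cells in a resting state, held rank 9 with 11 regions inside the gene (chr4:32334755-32406339) and rank 294. The Bach2 cluster of rank 9 had 17.9, 16.3 and 17.1 in KO, against 16.3, 14.4 and 17.8 in WT, so that the groups overlapped. Its log2 ratio was 0.09 (limma, adjusted p = 0.617). The smaller Bach2 cluster of rank 294 had a larger ratio, also short of the threshold (log2 0.29, limma, adjusted p = 0.106).

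The remaining clusters of the top 12 lay near Chd2, a chromatin remodeller (rank 6), between Lrrc74a and Irf2bpl (rank 7), at Rhoh, a small GTPase of T cell receptor signalling (rank 8), near Cd69, a receptor that holds activated lymphocytes in tissue (rank 10), 34.8 kb from Tomm20 (rank 11), and at Mcl1, a survival factor of the BCL2 family (rank 12). Their summed heights lay between 15.5 and 19.6 in KO libraries and between 14.4 and 18.0 in WT libraries. The clusters near Chd2, Cd69 and Tomm20 had every KO library above every WT library, as had those of Rhoh and Mcl1, while the groups of the cluster near Lrrc74a overlapped. The cluster near Cd69 (chr6:129208834-129255498), 11.8 kb from that gene and 22.3 kb from Clec2d, showed the largest ratio of the 12, at 17.7, 18.1 and 17.3 in KO and 16.0, 14.6 and 14.8 in WT (log2 0.22 ± 0.07, SE, limma, adjusted p = 0.117). None of the 12 passed the test.

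**Figure D3:**
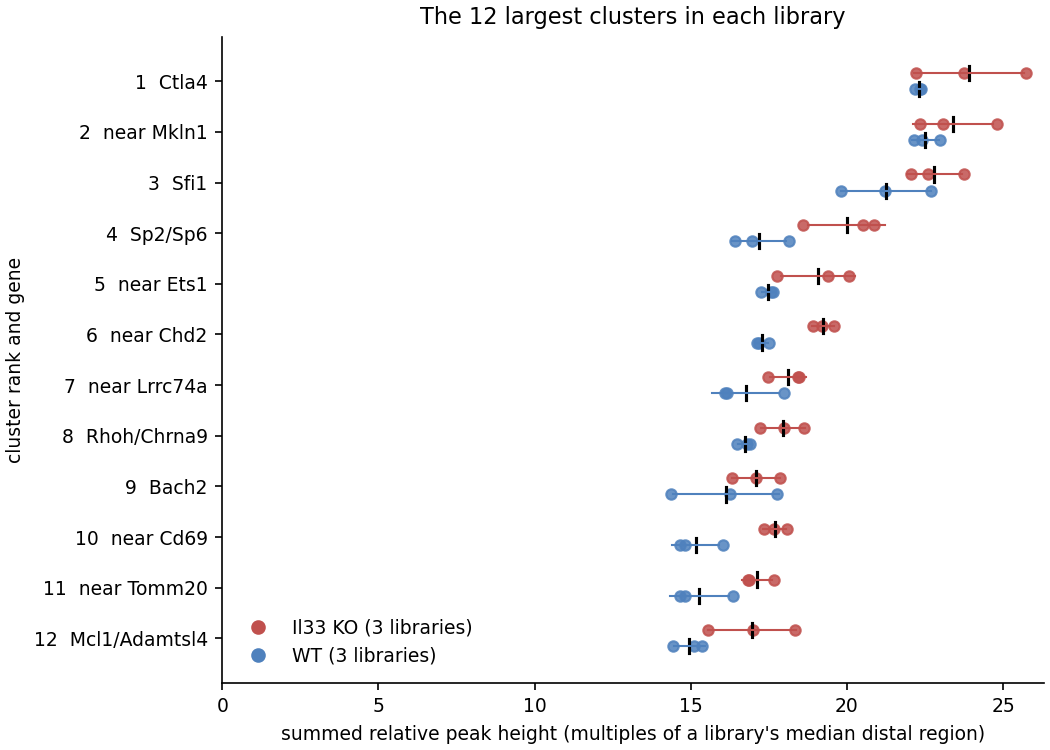
Summed relative peak height of the 12 largest clusters (horizontal axis, multiples of a library's median distal region) is shown for each library, KO above WT in each row; points are libraries, black ticks are means and lines are ± SD (n = 3). Under this median scaling KO means lie right of WT means in all 12 rows, which under quantile normalisation does not hold at Ctla4, near Mkln1 and at Sfi1, and the libraries overlap at Ctla4, near Mkln1, Sfi1, near Lrrc74a and Bach2.

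Many genes of Treg identity had a member. Of the 20 autosomal genes of the Treg core list, 9 (45.0%) were overlapped by a member or were the nearest gene to one, against 315 of 20665 protein-coding autosomal genes (1.52%). After Ctla4 these were Cd83 (rank 19), a surface glycoprotein of activated Tregs, Tnfrsf4 and Tnfrsf18, which share the cluster of rank 45 and encode the costimulatory receptors OX40 and GITR, Ikzf2 (rank 154), which encodes the Treg factor Helios, Il2rb (rank 169), Tigit (rank 177), Cd5 (rank 192) and Izumo1r (rank 237). GITR was itself a sorting marker. The cluster of Tnfrsf4 and Tnfrsf18 (chr4:156003983-156032366) had 12.05, 12.6 and 11.2 in KO, against 10.6, 10.1 and 10.6 in WT, and the groups were apart (log2 0.20 ± 0.07, SE, limma, adjusted p = 0.193). The Ikzf2 cluster (chr1:69669674-69704192) had 7.95, 9 and 8.5 in KO, against 7.28, 7.62 and 7.22 in WT, also apart and also short of the threshold (log2 0.20 ± 0.08, SE, limma, adjusted p = 0.227). For the cluster near Cd83 the groups overlapped, at 14.8, 15.1 and 12.8 in KO and 13.8, 14.5 and 14.7 in WT.

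Of the effector or tissue Treg list, 5 of 25 genes (20%) had a member: Tnfrsf9, Gata3, Tnfrsf1b, Prdm1 and Rora. Tnfrsf9, the costimulatory receptor 4-1BB, held rank 17 with 7 regions (chr4:150914120-150951620) and 15.0, 17.4 and 14.8 in KO, against 13.6, 13.4 and 14.3 in WT. The region at the Tnfrsf9 start site shown above had 1.81, 2.00 and 1.75 in KO and 1.67, 2.35 and 1.95 in WT, so that it overlapped between genotypes although the whole cluster did not. Gata3, a factor of type 2 responses and of tissue Tregs, held rank 42 (chr2:9867164-9890313), with 11.7, 12.4 and 11.4 in KO and 11.8, 10.8 and 10.6 in WT. Prdm1, which encodes the effector factor Blimp-1, had a log2 ratio of 0.0052, with 7.29, 7.53 and 7.21 in KO and 7.17, 7.57 and 7.22 in WT (rank 195).

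The next lists describe T cell states and functions. The naive state and homing list had a member at 6 of 16 genes (37.5%): Bach2, Cd69, the chemokine receptor Cxcr4 (rank 71), the quiescence factor Foxp1 (rank 126), the egress receptor S1pr1 (rank 186) and Ccr7 (rank 296). T lineage transcription factors had one at 9 of 25 (36.0%), led by Ets1, Stat5b (rank 30), which transmits interleukin-2 signals, Gata3 and Tox (rank 44). T cell receptor and costimulation genes had one at 5 of 22 (22.7%), namely the kinases Prkcq (rank 18) and Lck (rank 61), Cd28 (rank 63), Cd5 and Cd247. Cytokine signalling genes likewise had one at 5 of 22, led by Il6st (rank 15), the shared receptor chain of the interleukin-6 family. The NF-kB and interleukin-33 signalling list had one at 2 of 23 (8.70%): Irak2 (rank 77), a kinase downstream of interleukin-1 family receptors, and Tnfaip3 (rank 85), an inhibitor of NF-kB. No gene of the 4 other-cell lists had a member, out of 11 B cell, 12 myeloid and dendritic, 11 CD8 T and NK and 8 melanoma genes. The share over all protein-coding autosomal genes was 1.52%, at which lists this short would hold few or none. All gene lists were chosen with results of the same libraries known, and a gene with long flanks has more room for a cluster, so the counts describe the members only.

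Stat5b (chr11:100804309-100846366) had 13.5, 12.5 and 12.5 in KO, against 12.2, 11.9 and 13.3 in WT. Prkcq (chr2:11181491-11229569), with 10 regions in the gene of protein kinase C theta, had 14.95, 16.4 and 14.7 in KO, against 13.7, 13.2 and 15.1 in WT. Cd28 (chr1:60750296-60777685), whose gene lies 79.6 kb from the Ctla4 cluster, had 10.4, 10.9 and 9.71 in KO, against 8.81, 9.84 and 10.3 in WT. In each of these the highest WT library reached into the range of the KO libraries. Lck (chr4:129558174-129585736) was apart, with 11, 10.3 and 10.5 in KO, against 9.81, 9.54 and 9.97 in WT (log2 0.12 ± 0.07, SE, limma, adjusted p = 0.501).

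The interleukin-33 and NF-kB list had 3 member clusters, 1 at Irak2 and 2 near Tnfaip3, and in all 3 the genotypes overlapped. Irak2 (chr6:113644735-113691280) had 10, 8.53 and 9.92 in KO, against 9.22, 9.05 and 9.92 in WT. The larger cluster near Tnfaip3, 78.7 kb from it (chr10:19094094-19139830), had 8.86, 10.3 and 9.17 in KO, against 9.19, 8.19 and 9.68 in WT. The smaller one, 46.5 kb from the gene (rank 275, chr10:19061955-19078620), had 6.57, 7.8 and 6.42 in KO, against 5.53, 5.81 and 6.68 in WT. The log2 ratios of KO over WT at the 3 clusters were 0.01, 0.06 and 0.21 (limma, adjusted p = 0.969, 0.768 and 0.281). The gene of the interleukin-33 receptor itself, Il1rl1, had no member: its best cluster was 1 region with a height of 0.885 (rank 8213), and the nearest member lay 455 kb away.

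Other well-known Treg and T cell genes were also outside the 300. Il2ra, which encodes the sorting marker CD25, had its best cluster at rank 391 (value 5.71), Tcf7 at 406 (5.64), Icos at 491 (5.26), Foxo1 at 529 (5.10), Satb1 at 679 (4.61), Id3 at 707 (4.54), Lef1 at 784 (4.34) and Runx1 at 798 (4.32). Id2 (rank 2018) and Batf (rank 2845) were lower still. Icos lay 18.55 kb from the Ctla4 cluster and Klf2, a homing factor with no cluster of its own, 8.98 kb from the cluster at Eps15l1 (rank 181), so a gene without a member can still neighbour one. Assignment by overlap or nearest gene cannot tell which gene an element serves.

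At both T cell receptor loci with a member, the member covered constant regions. The alpha chain constant region Trac lay in the cluster of rank 22, which also overlaps Dad1 (chr14:54222239-54239412), and the beta chain constant regions Trbc1 and Trbc2 lay in the cluster of rank 64 (chr6:41532287-41567457). The beta cluster overlapped 18 receptor gene segments in all, with Trbd and Trbj segments and Trbv31 among them. The alpha locus cluster had 15.1, 15.6 and 14.2 in KO, against 12.6, 12.5 and 13.6 in WT. The beta locus cluster had 10.95, 10.4 and 10.4 in KO, against 8.92, 8.57 and 10.1 in WT. In both the KO libraries were all above the WT libraries, short of the threshold (log2 0.21 in each, limma, adjusted p = 0.153 and 0.193). Local background under the Trac cluster was 8.07 times the usual level, among the 5 highest of the members, and the part it plays was not tested.

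At the microRNA genes, Mir21a lay inside the cluster of rank 39 at Vmp1 (chr11:86568402-86596502), which had 12.8, 12.6 and 10.8 in KO, against 10.9, 11.3 and 11.1 in WT. Mir142 lay 1.13 kb from the cluster of rank 75 (chr11:87744796-87755735), which had 10.4, 11.2 and 9.13 in KO, against 8.67, 8.54 and 9.08 in WT. The hairpins of Mir23a, Mir27a and Mir24-2 lay 4.15 to 4.449 kb from one side of the cluster of rank 55 (chr8:84186464-84204366) and Mir181d 7.68 kb from the other. None of these 3 clusters passed the test (limma, adjusted p = 0.513, 0.177 and 0.248). Mir22 lay inside the cluster of rank 190 (chr11:75460030-75473323), which had 8.38, 8.73 and 7.38 in KO, against 6.58, 6.59 and 6.54 in WT, so that every KO library was higher (log2 0.31 ± 0.08, SE, limma, adjusted p = 0.0777).

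Between genotypes the same clusters led. Ranking by the 3 KO libraries alone kept 288 of the 300 members and by the 3 WT libraries alone 286, the KO and WT rankings shared 277, and their top 12 were the same clusters. Single libraries kept 277 to 281. The lists are not independent of the members, since all 6 libraries entered the ranking. One cluster near Pgm2 (chr5:64024148-64045767) stood out below the limit, at rank 439 with a value of 5.50: it ranked 1250 in KO and 183 in WT, with 3.90, 4.13 and 3.17 in KO against 7.33, 6.68 and 7.78 in WT (log2 -0.97 ± 0.09, SE, limma, adjusted p = 2.01e-09). It was found by its disagreement between the rankings, after its values were seen.

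Differences between KO and WT were tested with limma on the log2 summed heights of all 13144 clusters, with Benjamini-Hochberg adjustment over all of them. Among the members 3 were higher in KO at an adjusted p under 0.05, where 0.19% of all clusters were called higher, and 0 were lower, where 0.0685% of all clusters were called lower. At an unadjusted p under 0.05, 109 members (36.3%) were higher and 0 lower, against 1228 (9.34%) higher and 563 (4.28%) lower of all 13144 clusters. The 3 were a cluster near Rap1b, a cluster at Slc36a3 and a cluster at Inpp4b, which are not genes of the Treg lists. These 3 calls depended on single libraries: no member was called without KO replicate 1, WT replicate 2, WT replicate 4 or WT replicate 6, whereas 3 were called without KO replicate 2 and 32 without KO replicate 4. The log2 ratios themselves stayed between 0.32 and 0.42 near Rap1b, 0.30 and 0.37 at Slc36a3 and 0.30 and 0.39 at Inpp4b when single libraries were left out.

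The cluster near Rap1b, a small GTPase of integrin signalling, lay 48.1 kb from that gene and held 5 regions (rank 103, chr10:117894081-117926505). It had 9.67, 10.5 and 9.71 in KO, against 7.53, 7.38 and 8.43 in WT (log2 0.36 ± 0.08, SE, adjusted p = 0.0268, limma), and all 5 regions had a positive ratio. The cluster at Slc36a3, a gene of the proton-coupled amino acid transporter family, had 9.33, 9.80 and 9.13 in KO, against 7.39, 7.16 and 7.89 in WT (rank 122, chr11:55120536-55148861, log2 0.33 ± 0.08, SE, adjusted p = 0.0422, limma). The cluster at Inpp4b, a phosphatase that acts on phosphoinositides, had 7.81, 7.07 and 6.96 in KO, against 5.56, 5.97 and 5.57 in WT (rank 272, chr8:81491262-81528223, log2 0.35 ± 0.08, SE, adjusted p = 0.0471, limma). A larger Inpp4b cluster of rank 52, with 8 regions, overlapped between genotypes, at 10.9, 12.5 and 10.8 in KO and 9.75, 10.9 and 9.81 in WT.

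Among the other members whose groups were apart, the largest ratios were at Ncoa2 (rank 204, log2 0.34, limma, adjusted p = 0.0558) and Arhgap39 (rank 253, log2 0.32, limma, adjusted p = 0.0793). The single member with every KO library below every WT library lay near Prag1 (rank 127, chr8:36158760-36194617), with 7.62, 8.13 and 8.42 in KO, against 8.44, 8.78 and 8.73 in WT (log2 -0.10 ± 0.08, SE, limma, adjusted p = 0.577). Across the members, 115 had every KO library above every WT library, where 12.4% of all clusters did, and 1 had every KO library below, where 5.8% did. The median log2 ratio was 0.12 over the members and 0.04 over all clusters, and 279 of 300 members were above 0, against 7491 of 13144 clusters.

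At single regions, 11 of the 1541 member regions were higher in KO (limma, adjusted over all 18722 regions), where 0.214% of all regions were called higher, and 0 were lower, where 0.0801% were. At an unadjusted p under 0.05 the member counts were 240 higher (15.6%) and 14 lower (0.908%), against 1621 (8.66%) and 739 (3.95%) of all regions. Several called regions were weak. A region in the Inpp4b cluster (chr8:81502387-81503575) had 1.24, 1.2 and 1.25 in KO, against 0.528, 0.595 and 0.703 in WT (log2 1.02 ± 0.20, SE, limma, adjusted p = 0.0155). A region 103 kb from Tbl1xr1 at the end of its cluster (chr3:21972859-21973542) had 1.05, 0.867 and 1.04 in KO, against 0.528, 0.595 and 0.351 in WT (log2 1.03 ± 0.23, SE, limma, adjusted p = 0.0316), the largest ratio of the 11. The last region of the Tnfrsf9 cluster (chr4:150950867-150951620) had 1.43, 1.40 and 1.42 in KO, against 0.917, 0.784 and 0.703 in WT (log2 0.83 ± 0.18, SE, limma, adjusted p = 0.030), while the other 6 regions of that cluster did not pass. In all 3 the libraries of the genotypes were clearly separated.

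Among the called regions were also some of the tallest. The region at the Mir22hg start site shown above (chr11:75460992-75461909) had 4.67, 5.27 and 4.46 in KO, against 3.50, 3.49 and 3.51 in WT (log2 0.45 ± 0.10, SE, limma, adjusted p = 0.0246). A region 17.8 kb from Fos, which encodes an immediate early AP-1 subunit, had 5.29, 5.73 and 4.50 in KO, against 3.75, 3.68 and 3.97 in WT (chr12:85454886-85456069, log2 0.44 ± 0.10, SE, limma, adjusted p = 0.0316). The other called regions lay at Pced1b, Slc36a3, Rgs10, Sfi1, near Ap1m1 and near Rap1b, with log2 ratios of 0.45 to 0.84. The Sfi1 region shares the uncertainty of its locus.

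The ratio of KO over WT also varied with peak height over all distal regions. When the 18722 regions were divided by mean height into 5 bins of equal size, the median log2 ratio of KO over WT was 0.02, -0.03, -0.01, 0.05 and 0.13 in order of height. Member regions had a higher median than the other regions in each bin, at 0.06, 0.04, 0.04, 0.06 and 0.15 against 0.02, -0.03, -0.01, 0.05 and 0.12, a difference that was not tested. With quantile normalisation, which gives all libraries the same distribution of heights, the median over the members was 0.0088, and 164 of 300 (54.7%) were above 0, against 6439 of 13144 clusters (49.0%). No member cluster was called (limma). At an unadjusted p under 0.05, 22 members (7.33%) were higher and 10 (3.33%) lower, against 656 (4.99%) and 770 (5.86%) of all clusters. Under that scaling the ratios of the clusters near Rap1b, at Slc36a3 and at Inpp4b were 0.26, 0.17 and 0.31, with adjusted p = 0.0885, 0.315 and 0.0698. Those at Ctla4, near Mkln1 and at Sfi1 turned below 0.

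**Figure D4:**
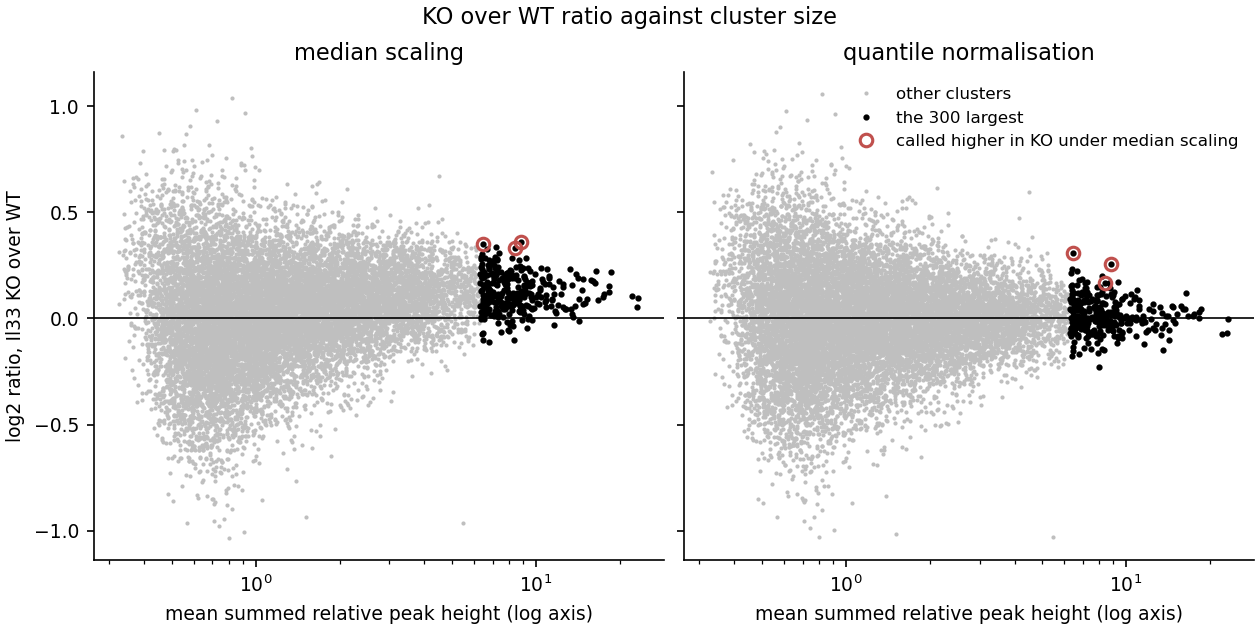
The log2 ratio of KO over WT is plotted against mean summed relative peak height (log axis, from the median scaling in both panels) for all distal clusters, with the 300 largest in black and the 3 called clusters circled. Under median scaling (left) 279 of the 300 lie above 0, and under quantile normalisation (right) 164 do.

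The members' shares of each library's summed distal height and of its peaks were higher in KO. They held 12.1%, 12.4% and 11.99% of the summed distal height in KO, against 11.6%, 11.6% and 11.8% in WT (12.2% ± 0.226 against 11.7% ± 0.109, SD, n = 3 each). The KO lists were shorter, with 42408, 37266 and 42738 peaks in all, against 53251, 55939 and 52836 in WT. The share of peaks is thus taken over fewer peaks in KO. The members held 4.37%, 4.72% and 4.41% of all peaks in KO, against 3.78%, 3.59% and 3.81% in WT (4.50% ± 0.193 against 3.73% ± 0.123, SD, n = 3 each). The number of peaks in them was lower in KO, at 1853, 1760 and 1885, against 2015, 2006 and 2014 in WT. For both shares and for the number of peaks in the members, the groups were apart. Each had a two-sided exact permutation p = 0.1, the smallest that 3 against 3 libraries allow. The heights and peaks behind these measures also chose the members, so the p-values are a description and not independent support. Of the 530 further regions inside the members that only some lists called, 46 were called in every WT and no KO library. None (0) was called in every KO and no WT library. Of 1768 such regions inside all 13144 clusters the counts were 171 and 1, and over all 64817 merged regions they were 3022 and 12. Relative to the mean of the WT libraries, the median log2 height of the members was 0.11, 0.21 and 0.06 in KO libraries with 8.21, 4.72 and 10.3 M tags, and -0.02, -0.04 and 0.05 in WT libraries with 13.1, 12.9 and 15.2 M. Among the KO libraries the shallowest stood highest and the deepest lowest, whereas among the WT libraries the deepest stood highest and the shallowest lowest. The part of depth in the difference was not tested.

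**Figure D5:**
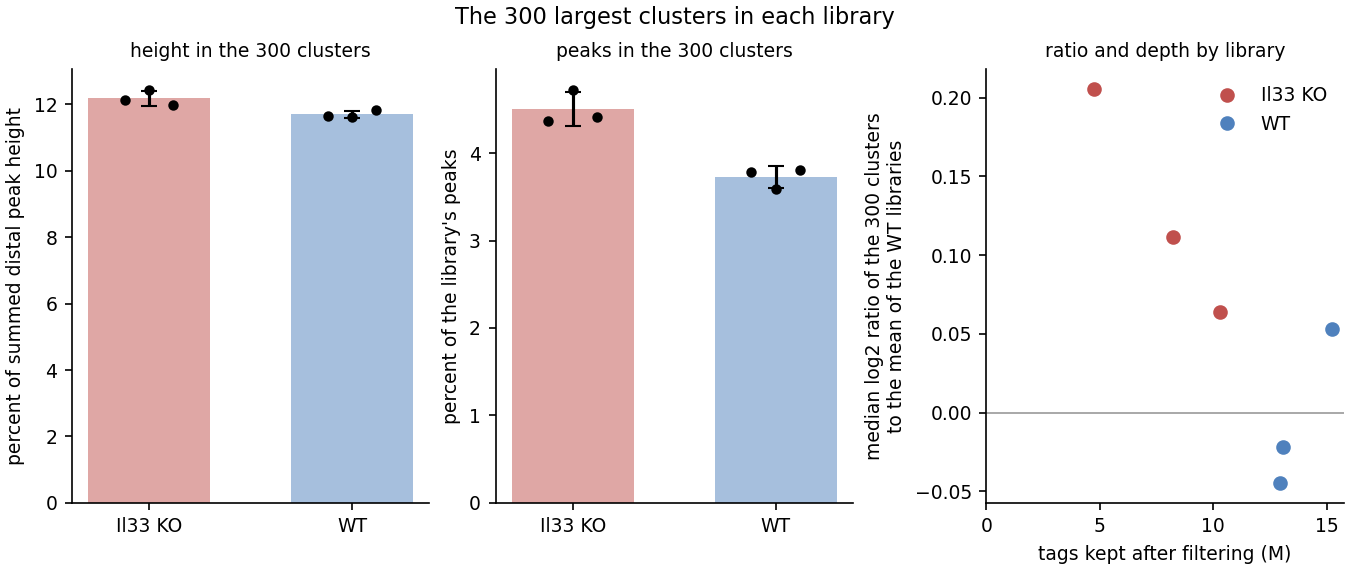
Left and middle, the percent of summed distal peak height and of all peaks that lies in the 300 clusters, KO left of WT (bars are means, error bars SD, points the 3 libraries); right, the median log2 ratio of the 300 clusters to the WT mean against tags kept (M). KO libraries lie above WT libraries in all 3 panels, and the KO library with the fewest tags has the highest ratio, 0.21.

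The members were spread over all 19 autosomes. Chromosome 11 had the most, 29, followed by chromosomes 1 and 4 with 24 each, while chromosomes 14 and 18 had 6 each. As a share of a chromosome's clusters this ran from 1.21% on chromosome 14 to 3.56% on chromosome 15. A total of 16 genes had more than 1 member: besides the 3 of Ets1, there were 2 each at Bach2, Chd2, Fli1, Inpp4b, Itpkb, Prkch, Tnfaip3 and others. The 2 members of Chd2, of rank 6 and rank 21, lie side by side (chr7:73572408-73654719 and chr7:73517463-73559218), so members are not all separate loci.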

How the data were processed

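Peak lists of 6 ATAC-seq libraries were used, with the genotype taken from the labels and the replicate number from the titles. The submitters' processing notes name Bowtie2 2.3.1, Picard 1.88 and the mm10 build. Per the file headers, MACS 2.1.1.20160309 was run on single libraries at a q-value of 0.05, with tags shifted by -100 bp, extended to 200 bp and 1 tag kept per position. As deposited, the pileup is an unscaled signal that counts the extended tags over a summit. Further deposited columns hold a −log10 p-value and a −log10 q-value for that height against local background, and the deposited fold is a ratio of the height over it.

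Peaks were merged where they shared at least 1 bp, which gave 64817 regions, 28808 of them autosomal and in all lists. Of these, 10086 lay within 1 kb of an end of one of 20665 protein-coding RefSeq genes (GRCm38.p6) and were left out. The highest peak per region and library was divided by the library's median over the remaining regions, and heights were summed over regions less than 12.5 kb apart. Log2 sums (and single regions) were fitted over all clusters with limma 3.58.1 with a mean-variance trend, KO against WT, without a replicate block, with Benjamini-Hochberg adjustment. Single values per library were tested by two-sided exact permutation over 20 assignments. A height rests on the number of tags, so relative heights of the shallower KO libraries are coarser.

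The members and gene lists were chosen with earlier results of these data known. Clusters were named by the gene they overlap or, failing that, the nearest. The text names the 12 largest, 3 on each side of the limit, those with the largest KO over WT ratio, up to 4 per gene list and a set of 20 genes; others are named with the regions, sequences or loci they belong to. Alternatives were other scalings, background subtraction, a −log10 q-value of at least 5, equal-length lists, 50% coverage, summed peaks, 5 kb gene ends, other joining distances, no trend, a replicate block and leaving out each library. The fit was also run on simulated clusters, with changes larger than any member cluster showed and the same spread in all libraries. That run says nothing about calls of the size reported here. Software was R 4.3.3, SciPy 1.17.1, NumPy 2.4.6, Python 3.11.15, Matplotlib 3.10.9 and pandas 2.3.3.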

Additional observations from a re-analysis of the deposited data

How the results depend on the processing

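The median log2 ratio of the members was above 0 under every alternative run, and the shares of height and of peaks in the members were higher in KO under every one that gave a value. The median moved by more than the spread only under quantile normalisation, to 0.0088. The 3 members called higher in KO became 0 under tags-per-million scaling, quantile normalisation, equal-length lists, 50% coverage, no trend and the replicate block, 5 with the local background subtracted and 6 with all peaks of a region summed. The 11 member regions called higher became 0 under tags-per-million scaling, no trend and the replicate block, 4 under quantile normalisation and 6 with equal-length lists. Member regions called lower numbered 1 with 50% coverage and 4 with gene ends of 5 kb, under which 1 member was called lower. Leaving out each library gave 0 to 32 members and 0 to 41 member regions higher, 0 to 3 regions lower, a median of 0.094 to 0.156, and 294 to 298 members kept by the ranking. Joining within 5 kb kept 151 members, joining within 25 kb kept 190 and 50% coverage kept 193. Membership and rank therefore depend on the joining distance and on the coverage asked of a region. The causes of these and the other changes were not tested. Replicate numbers 2 and 4 occur in both genotypes, and the deviations of same-numbered libraries had correlations of -0.00695 and -0.0556 over clusters, and the labels do not say what the numbers stand for; with the replicate block, which rests on 2 pairs, the median was 0.155. Of the 42 named members, 21 changed sign under at least 1 alternative, none of them called. A region too weak to be called in the shallowest library, with 4.72 M tags, cannot be a member region, which limits what depth allows to be seen.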
